A study of Nematostella vectensis with 96 samples.

Results

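The levels of 2 transcripts of the starlet sea anemone *Nematostella vectensis*, NVE13249 and NVE535, are described here out of 23927 gene models. The annotation of the study names NVE13249 a carboxypeptidase and NVE535 an ester hydrolase, without giving the kind of either enzyme. Both were selected on their difference between ZT10 and ZT22, which the study found in these same libraries, so that difference is given below as a description and without a test. For these hours the study reported a carboxypeptidase in red and blue light and an ester hydrolase in blue and green light. It reported no gene for them in constant darkness. The other time points were not what chose them. The mean level of each light condition and the relation of both genes to other genes did not choose them either, but both include ZT10 and ZT22.

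Carboxypeptidases cut amino acids one after another from the carboxyl end of proteins and peptides, and many of them are digestive enzymes. Ester hydrolases split ester bonds, such as those that join fatty acids to glycerol in fats. A sea anemone digests its food in a single body cavity, into which gland cells of the mesenteries release enzymes. Light and time of day set the daily cycle of activity of many animals, and ZT (zeitgeber time) counts the hours from lights on.

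Every library came from 1 whole adult animal that had been starved before sampling and was not pooled with others. For 1 month the animals had a daily photoperiod of 12 h in red, green or blue light and a scotoperiod of 12 h in the dark, or were in constant darkness (DD), and 4 animals per condition were taken at each of 6 time points from ZT2 to ZT22. In DD the hours have no light to mark them and only follow the clock of the other conditions. The tissue is the whole body, so fewer cells of a type and less RNA per cell cannot be told apart. No cell type markers were examined.

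Levels are in CPM, the number of counts of a gene scaled to the same library size with TMM factors, a correction for differences in the makeup of the libraries. Tag-based sequencing reads near the 3′ end of a transcript, so a count does not grow with transcript length. Of the 96 libraries, 93 had a total of at least 100000 counts and were used, with totals of 104048 to 706046 and a median of 344755. The 3 left out were red ZT6 replicate C, DD ZT6 replicate D and DD ZT22 replicate C, so these groups had 3 animals. Median totals differed along the day, at 504640 counts at ZT2, 428261 at ZT6, 297779.5 at ZT10, 278118 at ZT14, 275518 at ZT18 and 483245 at ZT22. The part of this depth difference in the results was not tested.

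Libraries of 1 group differed by more than counting error, with a chi-square per degree of freedom of 2.72 to 22.3. In 5 groups a single library stood apart, in that its lowest such value was more than 1.5 times the highest among the other libraries of its group. These were DD ZT2 replicate A, red ZT10 replicate D, blue ZT6 replicate D, blue ZT10 replicate D and blue ZT14 replicate B. All of them except blue ZT6 replicate D had the lowest level of both genes in their group. Blue ZT10 replicate D held only 2 counts of each gene, and blue ZT14 replicate B held 4 counts of NVE13249 and 2 of NVE535, the fewest of both genes in the libraries used. Values without them are given below for the differences between hours within a condition and the group means they enter.

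Both genes were among the more abundant transcripts, at rank 757 (NVE13249) and rank 1171 (NVE535) of the 9597 genes tested, those that averaged 3 or more counts. Mean counts per library were 64.6 for NVE13249 and 41.1 for NVE535, and neither gene was at 0 in a library used. A count of 0 would have allowed up to 3 counts, or 8.70 CPM in the median library and 28.8 CPM in the smallest. The level of the carboxypeptidase ran from 26.1 to 465 CPM, and that of the ester hydrolase from 23.1 to 275 CPM. Within groups, the SD of log2 CPM was 0.60 for NVE13249 and 0.56 for NVE535, against a median of 0.59 over all genes tested and 0.50 over the genes that averaged 10 or more counts. Of these better counted genes, 71.1% had a lower SD than NVE13249 and 62.6% a lower SD than NVE535. Many of these genes had fewer counts than both members.

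The carboxypeptidase NVE13249 was described first at ZT10 and ZT22, the hours that chose it. In red light it measured 150.0, 122.8, 109.8 and 39.7 CPM at ZT10, against 300.3, 179, 259 and 385 CPM at ZT22. The groups did not overlap, and the difference of mean log2 CPM was -1.45. In DD it measured 149, 94.4, 103.1 and 79.4 CPM at ZT10, against 235, 277 and 221 CPM at ZT22. Here too every ZT10 animal lay below every ZT22 animal, with a difference of -1.19. The share of all genes whose ZT10 and ZT22 groups lay apart was not counted for red light or DD. Separated groups at the hours that chose the gene are thus a description only.

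Blue light gave NVE13249 levels of 242, 58.3, 96.2 and 26.1 CPM at ZT10, against 331, 315, 128.02 and 248 CPM at ZT22. The difference was -1.54, and 1 of 16 pairs of animals had the ZT10 value above, that of blue ZT10 replicate A over blue ZT22 replicate C. Green light stood on the other side, with 126.01, 212, 316 and 218 CPM at ZT10 against 191, 124.3, 205 and 269 CPM at ZT22. There the difference was 0.12, the groups overlapped widely, and 11 of 16 pairs had the ZT10 value above. Without green ZT10 replicate C, or without green ZT22 replicate B, the green difference was -0.08. The median difference over all genes tested ranged from -0.13 in blue light to -0.01 in red light, with -0.02 in DD and -0.05 in green light.

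The ester hydrolase NVE535 was lower at ZT10 than at ZT22 on average in all 4 conditions. In DD it measured 81.2, 97.2, 63.02 and 42.7 CPM at ZT10, against 162, 159.6 and 209 CPM at ZT22. These groups did not overlap, with a difference of mean log2 CPM of -1.30, and the share of all genes with such groups was not counted here either. In green light the levels were 55.7, 84.03, 107.97 and 123.9 CPM at ZT10, against 179.6, 141.3, 123.1 and 189 CPM at ZT22. The difference was -0.77 and 1 of 16 pairs of animals had the ZT10 value above, in the light in which the carboxypeptidase had a difference of 0.12.

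In red light NVE535 measured 165, 113.4, 103.7 and 44.1 CPM at ZT10, against 107.1, 146, 275 and 167 CPM at ZT22, a difference of -0.73 with overlapping groups. In blue light it measured 79.4, 89.1, 75.3 and 26.1 CPM at ZT10, against 129.6, 168, 67.8 and 151 CPM at ZT22, a difference of -0.93 with overlapping groups. In both colors 3 of 16 pairs had the ZT10 value above. The libraries that stood apart carried part of these differences. Without red ZT10 replicate D the red difference was -1.07 for NVE13249 and -0.38 for NVE535, and without blue ZT10 replicate D the blue difference was -1.07 for NVE13249 and -0.56 for NVE535. The sign stayed in each case.

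Over the whole day, the highest group mean fell at ZT22 in 4 of 4 conditions for NVE535 and in red, blue and DD for NVE13249. The lowest lay at different hours. For NVE13249 it was at ZT10 in red light (105.6 CPM) and in DD (106.6 CPM), at ZT2 in green light (111.7 CPM) and at ZT14 in blue light (79.7 CPM). For NVE535 it was at ZT2 in red light (90.5 CPM), at ZT14 in green (85.9 CPM) and blue light (53.8 CPM) and at ZT10 in DD (71.03 CPM). Without red ZT10 replicate D, the ZT10 mean of NVE13249 in red light was 127.6 CPM and the lowest red mean was that of ZT2, at 121.2 CPM. The lowest hour in the other conditions, and that of NVE535 in all 4, was the same without the libraries that stood apart.

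With all conditions together (14 to 16 animals per time point), the median level of NVE13249 was 113.8 CPM at ZT2, 144 at ZT6, 116.3 at ZT10, 160.5 at ZT14, 231 at ZT18 and 248 at ZT22. The lowest animal was at 26.1 CPM, at ZT10, and the highest at 465 CPM, at ZT18. For NVE535 the medians were 89.5, 93.4, 82.6, 84.2, 125.05 and 159.6 CPM in the same order, with the lowest animal at ZT14 (23.1 CPM) and the highest at ZT22 (275 CPM). Both medians were thus highest in the last 2 time points of the scotoperiod, and ZT22 is one of the hours that chose them. In the order of the 24 group means on the log2 scale, the red ZT22 group led for NVE13249 (281 CPM) and the DD ZT22 group for NVE535 (177 CPM), and the blue ZT14 group was last for both. Without blue ZT14 replicate B its mean log2 CPM was 6.57 for NVE13249 and 6.09 for NVE535, above the blue ZT10 group with all of its animals (6.40 and 6.07), which then came last. With blue ZT10 replicate D left out as well, blue ZT14 was again last for both. No step between neighbours in that order exceeded the pooled SD within groups. The largest step was 0.34 for NVE13249, against an SD of 0.59, and 0.30 for NVE535, against an SD of 0.55, and the values of all 23 neighbouring pairs overlapped for each gene.

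Mid-day against mid-night (ZT6 minus ZT18) was the first test on hours that did not choose the genes. The test was edgeR's quasi-likelihood F test, with p adjusted by Benjamini-Hochberg over the 9597 genes and a threshold of 10% FDR. Neither gene passed it in any condition. In red light NVE13249 measured 134.3, 168 and 96.7 CPM at ZT6, against 339, 317, 107.8 and 313 CPM at ZT18. All but 1 of the ZT18 animals, red ZT18 replicate C, lay above every ZT6 animal. The log2 fold change was -1.03 (SE 0.43, adjusted p = 0.853), and 0.0104% of all genes passed in that comparison.

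Green light gave NVE13249 levels of 191, 149, 144 and 319 CPM at ZT6, against 231, 269.8, 181 and 465 CPM at ZT18. The groups overlapped, with a log2 fold change of -0.52 (SE 0.40, adjusted p = 0.971), where 0.0208% of genes passed. Without green ZT18 replicate D it was -0.18, and without green ZT6 replicate D -0.78. In blue light NVE13249 measured 151, 147, 76.4 and 99.1 CPM at ZT6, against 225, 231, 117.7 and 237 CPM at ZT18. Only blue ZT18 replicate C fell among the ZT6 values, the log2 fold change was -0.78 (SE 0.40, adjusted p = 0.864), and 0.0521% of genes passed. In DD the carboxypeptidase measured 144, 126.8 and 139.5 CPM at ZT6, against 247, 115.8, 107.6 and 159 CPM at ZT18. The ZT18 animals lay on both sides of the ZT6 animals, with a log2 fold change of -0.20 (SE 0.44, adjusted p = 0.999), and 0.0208% of genes passed.

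For the ester hydrolase NVE535 the red-light levels were 54.95, 141.99 and 117.5 CPM at ZT6, against 173, 207, 78.4 and 147 CPM at ZT18. In green light they were 89.8, 83.7, 139.3 and 46.9 CPM at ZT6, against 124.7, 112.7, 130.1 and 262 CPM at ZT18. These groups overlapped in both colors, with log2 fold changes of -0.55 in red light (SE 0.39, adjusted p = 0.939) and -0.76 in green light (SE 0.37, adjusted p = 0.861). Without red ZT6 replicate A the red value was -0.25, and without green ZT18 replicate D the green value was -0.39. In blue light NVE535 measured 110.2, 93.9, 69.6 and 92.9 CPM at ZT6, against 189, 125.4, 39.2 and 103.5 CPM at ZT18. In DD it measured 80.6, 135.2 and 96.9 CPM at ZT6, against 141.96, 64.7, 96.2 and 84.3 CPM at ZT18. Neither condition separated the hours, with log2 fold changes of -0.35 in blue light (SE 0.37) and 0.11 in DD (SE 0.41), and an adjusted p of 1.00 in both.

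Averaged over the 4 light conditions, the ZT6 minus ZT18 log2 fold change of NVE13249 was -0.63 (SE 0.21, 95% interval -1.05 to -0.21, adjusted p = 0.138). This was the result closest to the threshold, in a comparison in which 1.72% of all genes passed. For NVE535 it was -0.38 (SE 0.19, 95% interval -0.77 to 0.00, adjusted p = 0.407). The call on NVE13249 depended on the tool and on single libraries. It passed with DESeq2 (log2 fold change -0.64, adjusted p = 0.0429), with genes of a mean count of at least 10 (-0.63, adjusted p = 0.0670), with all 96 libraries (-0.69, adjusted p = 0.0980), without green ZT6 replicate D (-0.70, adjusted p = 0.0730) and without red ZT18 replicate C (-0.70, adjusted p = 0.0923). Across all alternatives its adjusted p ran from 0.0429 to 0.398.

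The DD values of both genes lay nearer 0 than those of the 3 colors. A test of any difference between the conditions in ZT6 minus ZT18 gave an adjusted p of 1.00 for both genes, and 0% of genes passed it. At an unadjusted p under 0.05 that test had 339 genes, and at 10% FDR DESeq2 called 0. The same test called 7 genes with all 96 libraries, 7 with libraries of at least 10000 counts and 1 without replicate D, and neither NVE13249 nor NVE535 passed in any of these settings. A difference of either gene between light conditions was thus not detected in this contrast. Without blue ZT6 replicate D the blue values were -0.69 for NVE13249 and -0.34 for NVE535.

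Early photoperiod against early scotoperiod (ZT2 minus ZT14) gave values of both signs. In red light NVE13249 measured 243, 44.4, 61.3 and 136.4 CPM at ZT2, against 194, 261, 192 and 213 CPM at ZT14. Of the ZT2 animals, 3 of 4 lay below every ZT14 animal, with a log2 fold change of -0.79 (SE 0.40, adjusted p = 0.950), and 0% of genes passed. At an unadjusted p under 0.05 that comparison had 475 genes, and DESeq2 called 8 at 10% FDR. Without red ZT2 replicate A, at 243 CPM, the log2 fold change was farther from 0, at -1.36 (adjusted p = 0.451). In blue light NVE13249 measured 41.7, 107.4, 101.96 and 210.1 CPM at ZT2, against 78.5, 46.3, 77.9 and 116.4 CPM at ZT14. The log2 fold change had the other sign there, 0.53 (SE 0.43, adjusted p = 0.992), the groups overlapped, and 0.0625% of genes passed. Without blue ZT2 replicate D it was 0.073, and without blue ZT2 replicate A 0.81.

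Green light gave NVE13249 levels of 103.6, 107.1, 149 and 87.3 CPM at ZT2, against 144, 121.9, 159 and 110.6 CPM at ZT14, a log2 fold change of -0.26 (SE 0.40, adjusted p = 0.965) where 0.0313% of genes passed. In DD the levels were 120.2, 309, 240.4 and 153 CPM at ZT2, against 249, 289, 162 and 224 CPM at ZT14, a log2 fold change of -0.14 (SE 0.40, adjusted p = 0.990) where 0.0417% of genes passed. Both sets of groups overlapped. Without DD ZT2 replicate A the DD value was 0.03.

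The ester hydrolase NVE535 in blue light measured 70.8, 107.4, 68.8 and 97.3 CPM at ZT2, against 52.3, 23.1, 54.5 and 85.3 CPM at ZT14. The ZT2 value was above in 14 of 16 pairs, with a log2 fold change of 0.65 (SE 0.41, adjusted p = 0.986). Without blue ZT14 replicate B it was 0.49, and that of NVE13249 was 0.40. In red light NVE535 measured 149, 55.6, 78.3 and 79.2 CPM at ZT2, against 85.2, 112.5, 59.7 and 145 CPM at ZT14. In green light it measured 103.6, 89.2, 89.8 and 100.9 CPM at ZT2, against 140.3, 64.8, 83.2 and 55.3 CPM at ZT14. The groups overlapped, with log2 fold changes of -0.13 in red light (SE 0.37, adjusted p = 1.00) and 0.17 in green light (SE 0.38, adjusted p = 0.983). In DD it measured 68.7, 128.2, 127.04 and 80.9 CPM at ZT2, against 164, 100.4, 38.9 and 125.8 CPM at ZT14, and the log2 fold change was -0.03 (SE 0.38, adjusted p = 1.00). Without DD ZT2 replicate A it was 0.085.

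Over the 4 conditions, ZT2 minus ZT14 was -0.16 for NVE13249 (SE 0.20, adjusted p = 0.870) and 0.16 for NVE535 (SE 0.19, adjusted p = 0.858), and 0.198% of genes passed. The test of a difference between conditions gave an adjusted p of 0.979 for NVE13249 and 0.996 for NVE535, and 0% of genes passed it. At an unadjusted p under 0.05 it had 478 genes, and DESeq2 called 2.

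**Figure D1:**
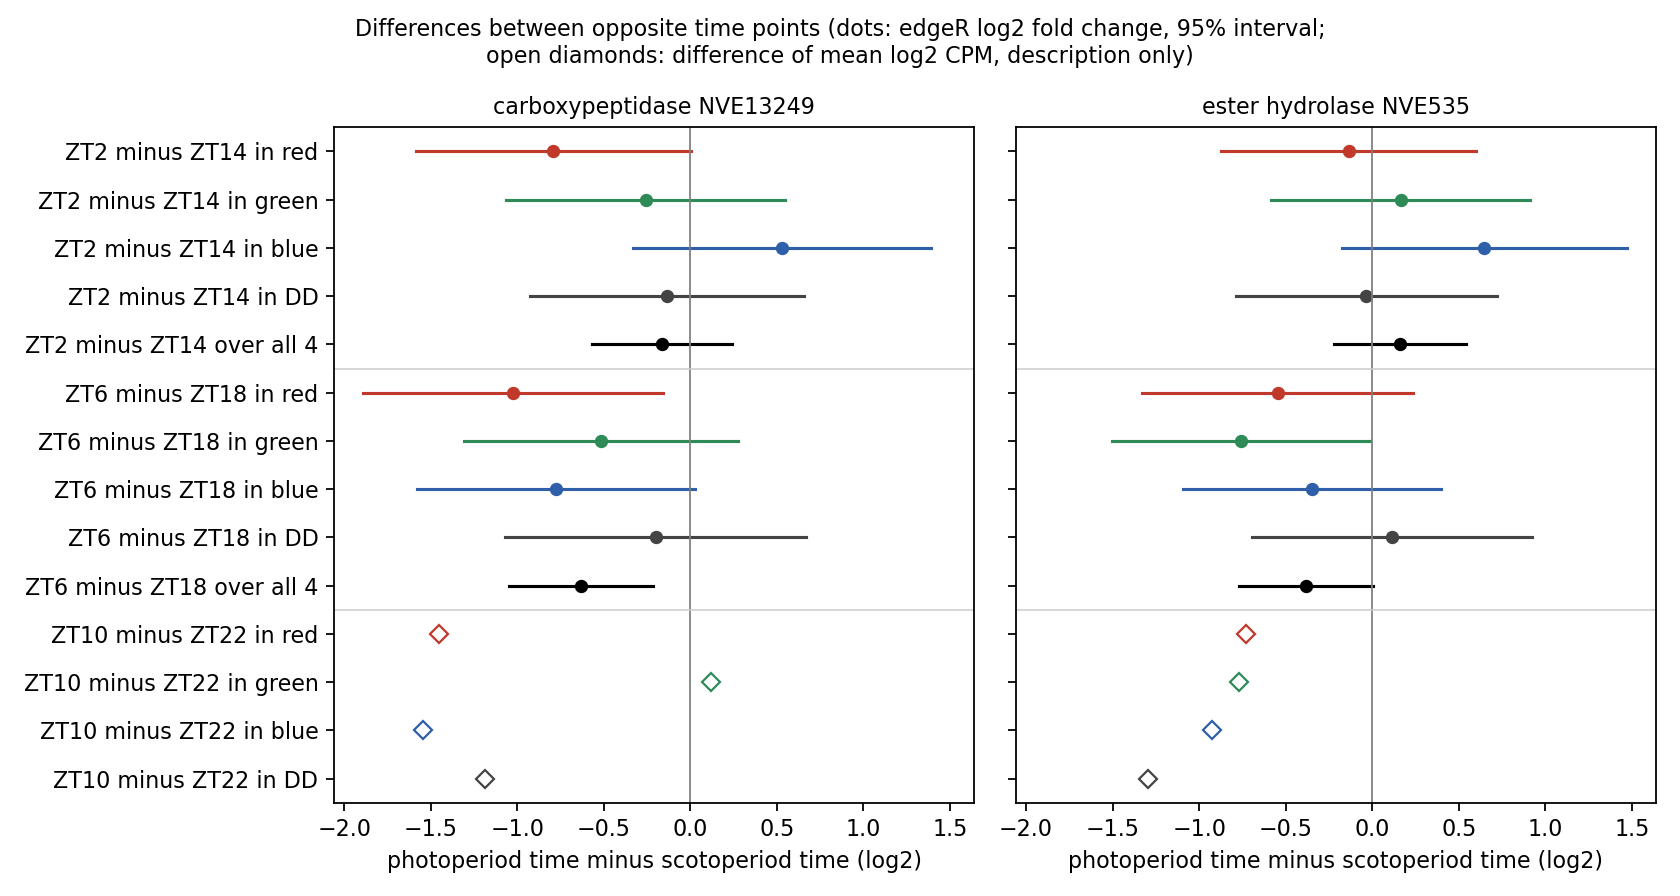
Difference on the log2 scale between opposite hours for NVE13249 (left) and NVE535 (right), each photoperiod hour minus the scotoperiod hour 12 h later, by light condition and over all 4. Dots are edgeR log2 fold changes with 95% intervals, and open diamonds are differences of mean log2 CPM for the hours that chose the genes, shown without a test. The dot farthest left is ZT6 minus ZT18 of NVE13249 in red light, at -1.03.

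Over the 6 time points, both genes had their lowest mean in blue light, 146 CPM for NVE13249 and 90.4 CPM for NVE535. The lowest, median and highest levels of NVE13249 were 39.7, 179 and 385 CPM in red light (23 libraries), 87.3, 169.8 and 465 CPM in green light (24 libraries), 26.1, 117.02 and 331 CPM in blue light (24 libraries) and 79.4, 156 and 309 CPM in DD (22 libraries). For NVE535 in the same libraries they were 44.1, 113.4 and 275 CPM in red light, 46.9, 105.8 and 262 CPM in green light, 23.1, 87.2 and 189 CPM in blue light and 38.9, 97.02 and 209 CPM in DD. The ranges of all conditions overlapped. These levels include ZT10 and ZT22, and the values without those hours are given beside the tests. Library totals differed between conditions as well, and blue light had the lowest median total at ZT2, ZT10, ZT14 and ZT22. At ZT14 it was 202225.5 counts in blue light, against 275600.5 in green light, 288123 in DD and 398497 in red light. The lowest was green light at ZT6 and DD at ZT18. The part of depth in the differences between conditions was not tested.

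Blue light minus DD was -0.34 on the log2 scale for NVE13249 (SE 0.17, 95% interval -0.68 to 0.00, adjusted p = 0.270) and -0.26 for NVE535 (SE 0.16, 95% interval -0.58 to 0.06, adjusted p = 0.408), and 7.41% of all genes passed. Without ZT10 and ZT22 the blue value was -0.55 for NVE13249 (adjusted p = 0.166) and -0.28 for NVE535 (adjusted p = 0.562). Without blue ZT10 replicate A, the highest of its group for NVE13249, the value of NVE13249 was -0.47 and passed (adjusted p = 0.0784). Without blue ZT10 replicate D it was -0.30 (adjusted p = 0.354). For NVE535 the adjusted p stayed at 0.278 or above when replicates or single libraries were left out.

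Red light minus DD was 0.01 for NVE13249 (SE 0.17, 95% interval -0.32 to 0.35, adjusted p = 0.984) and 0.16 for NVE535 (SE 0.16, 95% interval -0.15 to 0.48, adjusted p = 0.583), where 12.7% of genes passed. Green light minus DD was 0.07 for NVE13249 (SE 0.17, 95% interval -0.26 to 0.40, adjusted p = 0.884) and 0.04 for NVE535 (SE 0.16, 95% interval -0.27 to 0.36, adjusted p = 0.930), where 5.31% of genes passed. Without ZT10 and ZT22 the red values were -0.027 for NVE13249 and 0.11 for NVE535, and the green values -0.076 and 0.012 in the same order. Neither gene differed beyond its error, and differences within these intervals remain possible. A test of any difference between the 4 conditions gave an adjusted p of 0.276 for NVE13249 and 0.255 for NVE535, and 12.5% of genes passed it. Without ZT10 and ZT22 it was 0.241 for NVE13249 and 0.578 for NVE535. Without blue ZT10 replicate A that adjusted p was 0.0655 for NVE13249.

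**Figure D2:**
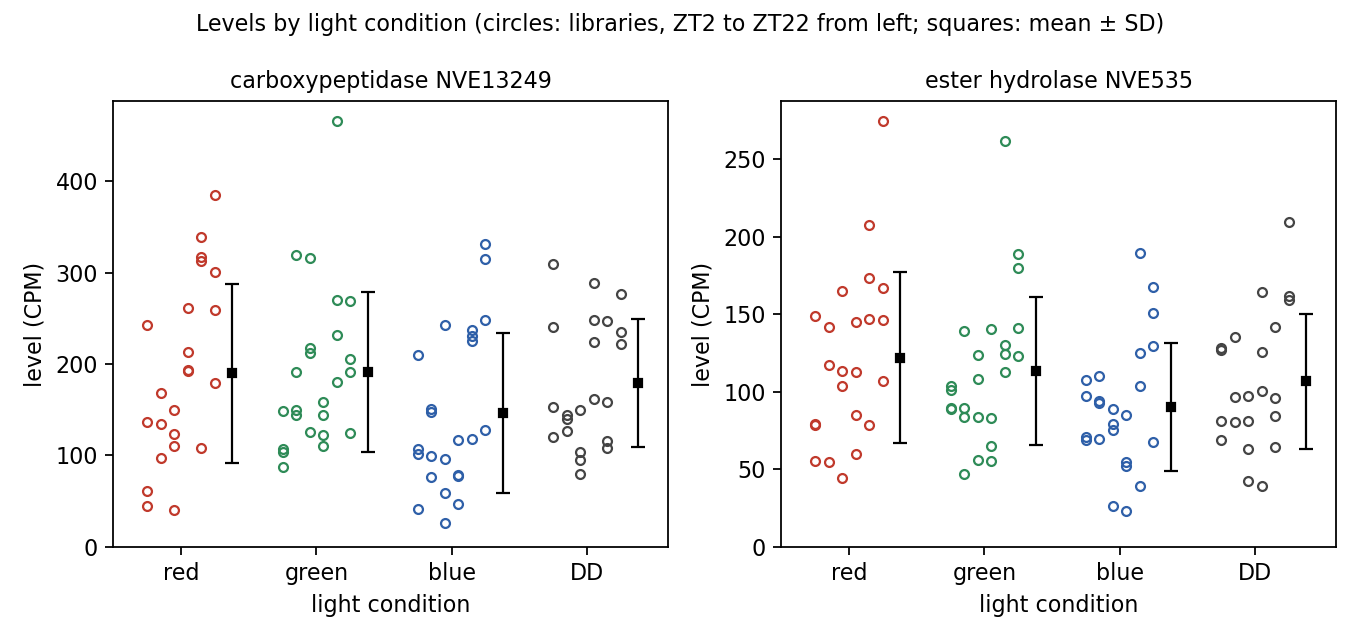
Level in CPM of NVE13249 (left) and NVE535 (right) by light condition. Circles are single libraries, set from left to right by time from ZT2 to ZT22 within a condition, and squares with bars are the mean ± SD over the condition. Blue light had the lowest mean of both genes, 146 CPM for NVE13249 and 90.4 CPM for NVE535, within the spread of the other conditions.

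The levels of both genes varied together across animals. Over the 93 libraries, log2 CPM of NVE13249 and NVE535 had a Pearson correlation of 0.68 and a Spearman correlation of 0.66, given as a description without a test because both genes were chosen for the same hours. Without the 2 libraries farthest from the median of NVE13249 the Pearson correlation was 0.63. The relation was not only one of group means, since deviations of single animals from their group mean had a correlation of 0.60. Within conditions it was 0.71 in red light, 0.39 in green light, 0.78 in blue light and 0.68 in DD.

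Values of both genes in a library share its depth and its scaling, and their part in the correlation was not tested. The correlation with the log2 library total was 0.24 for NVE13249 and 0.42 for NVE535. For deviations from group means it was 0.35 for NVE13249 and 0.34 for NVE535, with Spearman correlations of 0.15 and 0.27. The correlation of both genes without the libraries that stood apart was not computed. NVE13249 was the higher of the pair in 78 of 93 libraries, and the ratio of NVE13249 to NVE535 ran from 0.588 to 6.80. Its highest value was that of green ZT6 replicate D, with 319 CPM of NVE13249 and 46.9 CPM of NVE535.

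**Figure D3:**
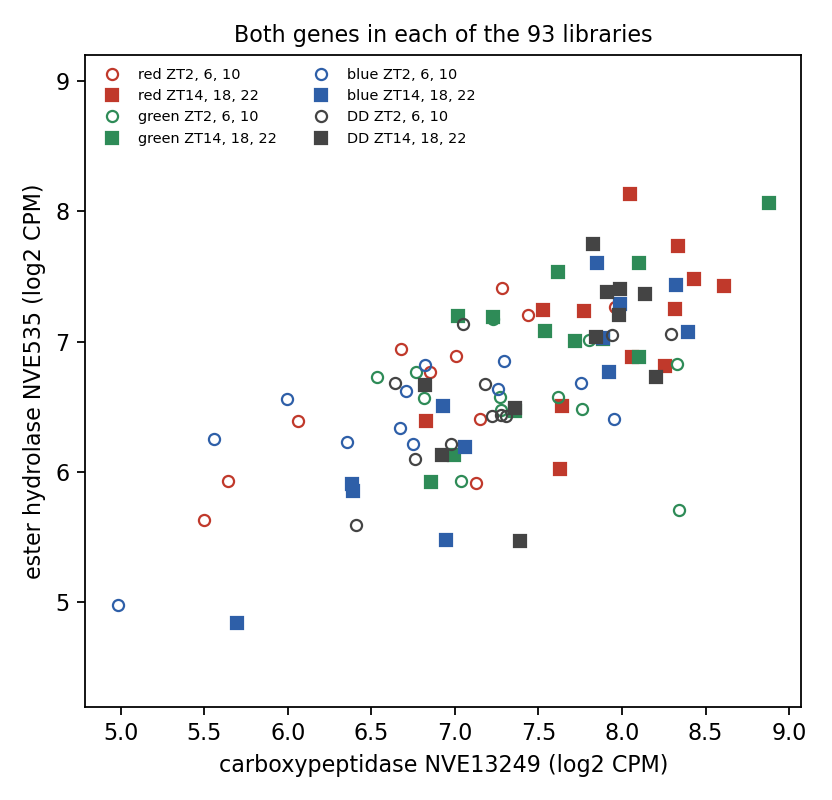
Log2 CPM of NVE535 against log2 CPM of NVE13249 in each of the 93 libraries. Open circles are ZT2, ZT6 and ZT10, filled squares are ZT14, ZT18 and ZT22, and colors mark the light condition, with DD in dark grey. The Pearson correlation was 0.68, and the library at the lower left is blue ZT10 replicate D, at 26.1 CPM of both genes.

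Among 4332 genes that averaged 10 or more counts, the median correlation with NVE13249 was 0.08 and with NVE535 0.09. For the carboxypeptidase, 28 genes lay closer than NVE535 did. The nearest was NVE1815, with a Pearson correlation of 0.88 over single libraries and 0.89 over the 24 group means. It was followed by NVE11651, annotated as a chitinase, an enzyme that breaks down chitin, at 0.84, and by NVE20133 at 0.80, NVE6177 at 0.78 and NVE10189 at 0.76. NVE10189 is annotated as profilin, a protein that binds actin. NVE1815, NVE20133 and NVE6177 are named only by their identifiers.

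For the ester hydrolase, 1 gene lay closer than NVE13249 did. It was NVE9443, annotated as a subunit of the enzyme that attaches sugar chains to proteins in the endoplasmic reticulum, at 0.69. After it and NVE13249 came the chitinase NVE11651 at 0.68, NVE16604 at 0.66 and NVE1017 at 0.66. NVE11651 was thus among the 5 nearest genes of both, and its ZT10 minus ZT22 differences were -1.05 in red light, -0.17 in green light, -1.39 in blue light and -1.33 in DD. NVE1815 had -0.69 in red light, 0.51 in green light, -1.09 in blue light and -0.75 in DD. Both genes were picked for their likeness to the members over the same libraries, these hours included, so these values are a description only.

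The other enzymes of both classes were taken from the annotation that the study gave its own list of genes from these libraries. Neither their direction nor the share of them that passed a test is thus independent evidence. There were 27 other peptidases and 10 other ester hydrolases, and all were measured and tested. In ZT6 minus ZT18 over the 4 conditions, 2 of 27 peptidases passed, both lower at ZT6, and 0 of 10 ester hydrolases did, against 1.72% of all genes. One was the collagenase NVE14551, which by its name cuts collagen, with a log2 fold change of -2.86 (SE 0.35, adjusted p = 3.29e-08). It passed in red light (-3.69), where 0.0104% of all genes did, and in green light (-3.08), where 0.0208% did, and its correlation with NVE13249 was 0.59. The other was a trypsin, NVE16978, at -0.54 (SE 0.16, adjusted p = 0.0820), a serine protease class that cuts proteins inside the chain. This trypsin had a correlation of -0.15 with NVE13249 and -0.34 with NVE535. The median log2 fold change was -0.08 over the 27 peptidases and 0.02 over the 10 ester hydrolases, against 0.01 over all genes.

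In ZT2 minus ZT14 over the 4 conditions none of the 27 peptidases and none of the 10 ester hydrolases passed, where 0.198% of all genes did, with medians of -0.11 and -0.05 against 0.02 over all genes. In ZT6 minus ZT18 in blue light and in DD, and in ZT2 minus ZT14 in each condition, none passed in either list. Between 0% and 0.0625% of all genes passed in these comparisons.

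More of these enzymes differed between light and darkness. In red light minus DD, 5 of 27 peptidases passed as higher and 2 as lower, and 2 of 10 ester hydrolases as higher and 1 as lower, against 12.7% of all genes. One higher peptidase was NVE13250, the other gene annotated only as a carboxypeptidase, at 0.74 (SE 0.26, adjusted p = 0.0576). An aminopeptidase, NVE1274, which cuts from the amino end, was at 0.77. The other higher ones were the neurotrypsin NVE4882 (0.88), the peptidase NVE2493 (0.66) and the trypsin NVE25777 (0.39). The lower peptidases were the mannan-binding lectin serine peptidase NVE16646 (-1.05) and the S15 peptidase NVE15969 (-0.69). Counts averaged only 3.46 per library for NVE1274 and 3.35 for NVE4882, near the minimum of 3. The higher ester hydrolases were the acetylcholinesterases NVE1165 (0.70) and NVE4731 (0.41), an enzyme class that splits a neurotransmitter, and the lower one was the palmitoyl-protein thioesterase NVE15621 (-0.56). The median was 0.16 over the peptidases and 0.28 over the ester hydrolases, against 0.00 over all genes.

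In green light minus DD, 4 of 27 peptidases and 2 of 10 ester hydrolases passed, all higher, against 5.31% of all genes. They were NVE13250 (0.85), the neurotrypsin NVE4882 (1.13), the cathepsins NVE11230 (0.49) and NVE5223 (0.86), the phospholipase A2 group XV gene NVE10565 (0.85) and the phospholipase NVE22172 (0.45). Cathepsins are mostly proteases of the lysosome. The medians were 0.15 and 0.30, against 0.02 over all genes.

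In blue light minus DD, 2 of 27 peptidases passed as higher and 1 as lower, and 2 of 10 ester hydrolases as higher, against 7.41% of all genes. NVE10565 had the largest value of these, 1.92 (SE 0.24, adjusted p = 1.17e-08). The neurotrypsin NVE4882 (1.42), the YME1-like protease NVE12843 (0.58) and the GDSL-like lipase NVE25816 (0.54) were higher too, and the astacin-like metalloendopeptidase NVE20002 was lower (-0.67). NVE4882 averaged only 3.35 counts per library. The medians were 0.08 over the peptidases and 0.15 over the ester hydrolases, against 0.00 over all genes, while NVE13249 and NVE535 had values below 0 that did not pass. In the test of any difference between the 4 conditions, 11 of 27 peptidases and 3 of 10 ester hydrolases passed, against 12.5% of all genes. The chymotrypsin NVE9071 (adjusted p = 0.0692), the serine protease NVE15608 (adjusted p = 0.0489) and the cathepsin Z precursor NVE4490 (adjusted p = 0.0778) passed only there. As both lists came from the study's own genes in these libraries, the shares that passed are a description only.

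NVE13249 averaged 177 CPM over the 93 libraries, against 15.01 CPM for NVE13250, which shares its annotation. Counts of NVE13250 averaged 5.29 per library, and the correlation of both over the same libraries was 0.57. Its ZT10 minus ZT22 differences were -0.33 in red light, 0.19 in green light, -1.31 in blue light and -0.10 in DD. Whether the 2 genes resemble each other in sequence was not examined, so a share of reads moved between them by the counting cannot be told.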

How the data were processed

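Whole-animal RNA was sequenced as tags from the 3′ end of transcripts. Per the labels and the methods of the study, the authors removed PCR duplicates, trimmed and filtered reads by quality (FastX-toolkit), aligned them with Bowtie2 to the gene models of the Vienna transcriptome and deposited raw counts of reads per gene, whole numbers without normalization, for 23927 gene models and 96 libraries. Every column was matched to its sample by name. Values depend on that annotation, and reads shared by near-identical genes may have been lost.

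Libraries with a total under 100000 counts were left out. Counts were tested in R 4.3.3 with edgeR 4.0.16 (limma 3.58.1), with TMM normalization, 1 fit of 24 groups, genes of a mean count of at least 3, two-sided quasi-likelihood F tests and Benjamini-Hochberg adjustment over all genes at 10% FDR. Standard errors were derived from the F statistic. Log2 CPM used a prior count of 2. The tests were tried on simulated data. Single animals are the replicates. Figures used matplotlib 3.10.9.

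The members, the gene lists and the alternatives were chosen with earlier results of these data known. By rule, the text names the members, listed enzymes that passed a test, and the 5 genes of a mean count of at least 10 most correlated with each member. NVE11651, NVE1815 and NVE13250 are described further after their values were seen. Lists hold the peptidases and the lipases or carboxylic ester hydrolases that the annotation names, without those for ubiquitin, UFM1 and signal peptides, proteasome subunits and phospholipases C. Alternatives were DESeq2 1.42.0, RLE size factors, other count minimums and library minimums, separate fits per condition, a replicate block, and leaving out replicates and single libraries. When single libraries were left out, the genes and the trended dispersion of the full fit were kept. Identifiers could not be paired with genome positions or sequences here, so none are given.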

Additional observations from a re-analysis of the deposited data

Results flagged for a closer look

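In groups of 4 animals, 3 of 42 tested sets had 1 animal whose gap to the nearest other exceeded Dixon's critical value, and chance flags about 1 in 20 groups. NVE13249 in blue ZT18 replicate C was at 117.7 CPM, far below the other 3 animals of its group. In red ZT18 replicate C it was at 107.8 CPM, likewise below the rest. NVE535 in green ZT18 replicate D was at 262 CPM, far above the rest of its group. All 3 lay at ZT18. Without the first, ZT6 minus ZT18 of NVE13249 in blue light was -0.96, against -0.78 with all animals. Without the second, its value in red light was -1.28, against -1.03. Without the third, ZT6 minus ZT18 of NVE535 in green light was -0.39, against -0.76. None of these values passed.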

How the results depend on the processing

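Of 1208 repeats of the tests on NVE13249 and NVE535, 1156 were unchanged and 45 turned direction. Another 7 passed the threshold that the result as reported did not. Unchanged means the same side of the threshold and, where a test has a direction, the same direction. The tests of any difference between conditions, in level or between hours, have no direction. They could change only their side of the threshold, so all 45 turns came from the other tests. None of those that turned passed, and their causes were not tested. Values are log2 differences. With all 96 libraries, ZT6 minus ZT18 over the 4 conditions was -0.69 for NVE13249 and passed, ZT6 minus ZT18 in DD was -0.061 for NVE535, and the described ZT10 minus ZT22 in DD was 0.18 for NVE13249 and -0.048 for NVE535. That setting brings in a ZT22 library with 289 counts. With libraries of at least 10000 counts, ZT6 minus ZT18 in DD was -0.041 for NVE535. ZT6 minus ZT18 of NVE13249 over the 4 conditions also passed with DESeq2 (-0.64) and at a mean count of at least 10 (-0.63). Without a filter on counts, ZT2 minus ZT14 in DD was 0.012 for NVE535. Without ZT10 and ZT22, NVE13249 was at -0.027 in red light minus DD and -0.076 in green light minus DD.

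Deviations of same-lettered animals, at ZT2 with ZT14 and at ZT6 with ZT18, had correlations of -0.18 to 0.39 (median 0.05), 7 of 30 above 0.1. Animals of different letters were not compared, so whether the letters pair the animals cannot be told. With a replicate block, ZT2 minus ZT14 in DD was 0.019 for NVE535 and red light minus DD was -0.0053 for NVE13249, with no other change of direction or call in either gene.

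Leaving out replicates or single libraries gave ranges that crossed 0 or the threshold for these results. NVE13249 ran from -0.40 to 0.047 for ZT2 minus ZT14 in DD, from -0.38 to 0.088 for ZT6 minus ZT18 in DD, from -0.74 to -0.52 for ZT6 minus ZT18 over the 4 conditions, from -0.080 to 0.071 for red light minus DD, from -0.094 to 0.19 for green light minus DD, from -0.47 to -0.26 for blue light minus DD, and from -0.079 to 0.35 for ZT10 minus ZT22 in green light. Its adjusted p for any difference between conditions ran from 0.0655 to 0.654. NVE535 ran from -0.55 to 0.17 for ZT2 minus ZT14 in red light, from -0.035 to 0.50 in green light and from -0.46 to 0.33 in DD, from -0.27 to 0.51 for ZT6 minus ZT18 in DD, and from -0.025 to 0.17 for green light minus DD.

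Counts of all genes that passed moved more. Settings other than leaving out replicates or single libraries gave 85 to 284 (165 as reported) for ZT6 minus ZT18 over the 4 conditions. For ZT2 minus ZT14 they gave 8 to 77 (19). Red light minus DD had 515 to 1327 (1218), green light minus DD 170 to 655 (510) and blue light minus DD 250 to 781 (711). Any difference had 429 to 1378 (1198). The lowest counts of these last comparisons, between light conditions, came from the setting without ZT10 and ZT22, which holds fewer libraries. With those hours kept, the lowest were 778 in red, 241 in green and 471 in blue light minus DD and 757 for any difference, all without a filter on counts. Within single conditions the genes that passed ran from 0 to 26 for ZT2 minus ZT14 and from 0 to 20 for ZT6 minus ZT18. The test of a difference between conditions called 0 to 7 genes for ZT6 minus ZT18 and 0 to 2 for ZT2 minus ZT14. Totals of at most 706046 counts and 3 or 4 animals per group limit what could be detected.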
